A study of Sus scrofa with 8 samples.

Results

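The genes described here encode enzymes and carriers of the TCA cycle, the malate-aspartate shuttle, ketone body use and the breakdown of the branched-chain amino acids leucine, isoleucine and valine. They were chosen by name from a list of 42 symbols, and 36 of these symbols have a row among the 18975 genes of the expression table. Of the 36 genes, 34 reached at least 1 FPKM (read fragments scaled to transcript length and to the mapped total) in at least 2 libraries, which was the condition for being tested. The samples were hearts of male pigs of 6 months from 4 groups. TH are Tibetan pigs in the highland (3000 m), TL are Tibetan pigs in the lowland (100 m), YH are Yorkshire pigs in the highland and YL are Yorkshire pigs in the lowland. Each group has 2 libraries, and each library pools the RNA of 4 pigs, so the spread between libraries is a spread between pools. No chamber of the heart is named in the labels. The titles and the breed give YL1 and YL2 as YL, as used here, whereas their descriptions name the file of TL.

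The TCA cycle burns acetyl groups in the mitochondrial matrix and hands their electrons to the respiratory chain, which is how the heart makes most of its ATP. Acetyl groups reach the cycle from fatty acids, pyruvate, ketone bodies and amino acids. Ketone bodies are taken up from blood and turned back to acetyl-CoA in mitochondria, and branched-chain amino acids are first transaminated and then oxidised by a dehydrogenase complex that a kinase holds in check. The malate-aspartate shuttle carries the reducing power of cytosolic NADH into the matrix.

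A point on the libraries comes before the results. YL2 stood apart. The summed FPKM of 17 rows of kidney markers was 9033 in YL2 and 1.58 to 18.1 in the other 7 libraries, and all 17 rows were highest in YL2. In the other 7 libraries 14 of these 17 rows were under 1 FPKM, among them UMOD, MIOX and AQP2. Heart markers were present in every library. TNNT2, cardiac troponin T, was at 2804 FPKM in YL2 and 3833 to 7636 FPKM in the others. MYH7 and MYL2 were not found in the table by name. By its sum the liver list (13 of 14 genes found) also set YL apart, at 138 FPKM in YL2, 48.8 FPKM in YL1 and 15.6 to 37.6 FPKM in the other 6. In YL1, APOC3 was at 13.6 FPKM and HP at 11.7 FPKM, against at most 1.49 and 2.44 FPKM in TH, TL and YH, while albumin, ALB, was at 4.17 FPKM. In YL2, APOC3 alone was at 94.7 FPKM, while HP was at 1.29 FPKM and ALB at 0.924 FPKM. Of the 16 rows, 8 were highest in YL2. The more abundant APOA1 row ran the other way in YL1, at 8.94 FPKM, the lowest of the 8 libraries. Every comparison with YL is given with YL1 alone as well, and the part of the liver markers of YL1 in those values was not tested. Reads on genes numbered 15687000 to 26723000 per library, and 26.6% to 47.8% of them lay on the mitochondrial genome, with the highest share in TH1. In bulk tissue, fewer cells of a type and less RNA per cell cannot be told apart.

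The mRNA levels of the 34 genes were mostly lower in TH than in YH and TL, and the comparisons against YL depended on YL2. In TH, 31 of 34 genes were below YH and 33 of 34 below TL by the fitted means. The median log2 fold change was -0.48 for TH to YH and -0.51 for TH to TL, against -0.03 and -0.02 over all 11913 genes tested. None of the 34 genes was called in any comparison, where a call in limma needs both a log2 fold change beyond 1 in size and an adjusted p under 0.01. The branched-chain dehydrogenase subunit BCKDHB, the hydroxyacid transhydrogenase ADHFE1, the aspartate aminotransferase GOT2 and the leucine enzyme MCCC1 were among the 6 genes of smallest p in TH to YH, and all of these but GOT2 also in TH to TL. For the abundant genes MDH2, IDH2 and SUCLG1, and for IDH3A and IDH3G, the TH libraries overlapped those of the other groups.

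**Figure D1:**
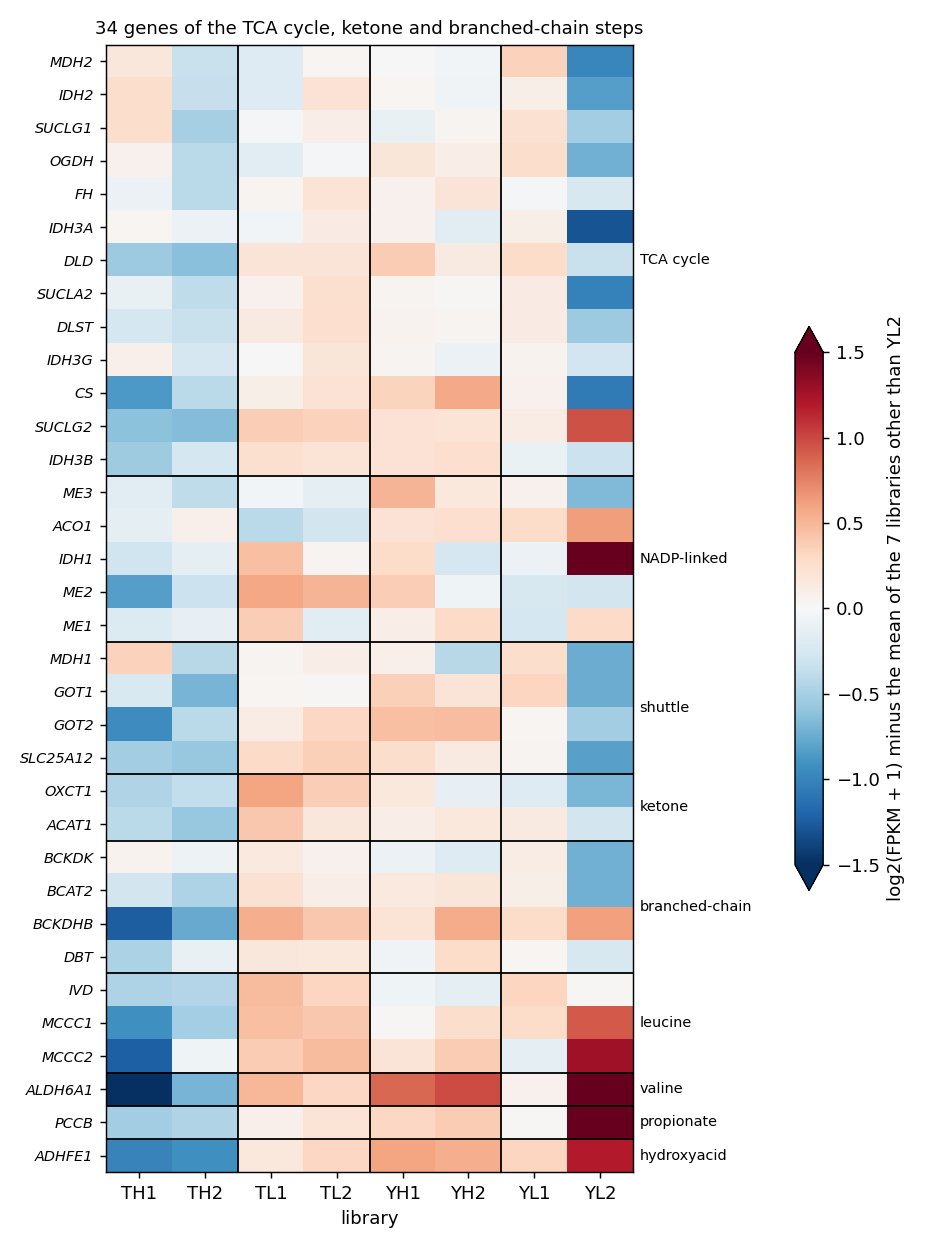
Expression of 34 genes (rows, grouped by role) in 8 libraries (columns). The colour gives log2(FPKM + 1) minus the mean of the 7 libraries other than YL2, with blue below and red above that mean and values beyond 1.5 drawn at the end of the scale. The TH columns are blue for most genes below the abundant TCA cycle enzymes, and YL2 holds both the lowest and the highest values of many rows.

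Within the set the levels spanned a wide range. Leaving out YL2, the mean was 550 FPKM for MDH2, 482 FPKM for MDH1, 479 FPKM for IDH2 and 453 FPKM for SUCLG1, which is above 98.9% of all genes in the table for each of them. At the other end of the tested genes were ME1 at 1.36 FPKM, MCCC2 at 8.84 FPKM and DBT at 10.8 FPKM. BCAT2, the mitochondrial branched-chain aminotransferase, had a mean of 52.2 FPKM without YL2, whereas BCAT1, the cytosolic form, was at 0.04 to 0.40 FPKM in 7 libraries and 2.87 FPKM in YL2. BCAT1 therefore did not enter the tests. The row named MUT covers 1498 bases of chromosome 7 and held 1 read or fewer in every library, so that it also did not enter the tests.

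For the TCA cycle enzymes of highest level the TH pools differed from each other, and a shift in TH was not resolved. MDH2, the mitochondrial malate dehydrogenase that closes the cycle, lies on chromosome 3 at 9953217 to 9965969 (Sscrofa10.2, as are all positions given). It was at 612 and 431 FPKM in TH, 477 and 557 FPKM in TL, 548 and 531 FPKM in YH, and 694 and 276 FPKM in YL1 and YL2. The TH libraries lay on either side of the TL and YH libraries, and the fitted log2 fold change was -0.07 (SE 0.45) for TH to YH and -0.01 (SE 0.45) for TH to TL. IDH2, the NADP-linked isocitrate dehydrogenase of mitochondria, was at 568 and 373 FPKM in TH, 414 and 550 FPKM in TL, 486 and 457 FPKM in YH, and 505 and 268 FPKM in YL. Here too the groups overlapped, with TH1 the highest and YL2 the lowest of all 8 libraries. The SE of IDH2 was 0.39 in both comparisons with TH. As the fit pools the spread of all groups, the difference between YL1 and YL2 enters these SE beside that between TH1 and TH2. For TH to YH, MDH2, IDH2 and SUCLG1 were at -0.32, -0.34 and -0.46 without TH1, and at 0.18, 0.27 and 0.29 without TH2. Of the other abundant genes, IDH3G was at 97.7 and 77.4 FPKM in TH and 86.7 to 105 FPKM in TL, YH and YL1, and OGDH, of the oxoglutarate dehydrogenase complex, at 193 and 140 FPKM in TH and 163 to 222 FPKM there. Fumarase, FH, was at 148 and 119 FPKM in TH and 155 to 181 FPKM in TL, YH and YL1, and DLST, the core of the oxoglutarate dehydrogenase complex, was at 92.6 and 88.1 FPKM against 115 to 133 FPKM. FH and DLST were thus below these 5 libraries in TH, and IDH3G and OGDH overlapped with them.

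DLD, CS, SUCLG2 and IDH3B were the TCA cycle genes with the lowest TH values. DLD, the dihydrolipoamide dehydrogenase shared by the pyruvate, oxoglutarate and branched-chain complexes, lies on chromosome 9 at 118410806 to 118437645. Its levels were 80.4 and 76.0 FPKM in TH, 135 and 135 FPKM in TL, 154 and 129 FPKM in YH, and 143 and 93.2 FPKM in YL. Both TH libraries were the lowest of the 8. The log2 fold change was -0.84 (SE 0.27, limma adjusted p = 0.220) for TH to YH, and -0.78 (SE 0.27) for TH to TL. CS, citrate synthase, which joins acetyl-CoA to oxaloacetate, was at 43.0 and 59.6 FPKM in TH, 84.3 and 92.0 FPKM in TL, 100.04 and 118 FPKM in YH, and 82.8 and 37.5 FPKM in YL. TH was below TL, YH and YL1, while YL2 was lower still, so that CS was the gene of smallest p for YH to YL with a log2 fold change of 0.95 (SE 0.39, limma adjusted p = 0.784), and 0.39 with YL1 alone. The CS row covers only 2999 bases of chromosome 5, from 23162526 to 23165524, and its Ensembl ID was not in the table of gene names, so its model may be partial. IDH3B, a regulatory subunit of the NAD-linked isocitrate dehydrogenase, was at 22.3 and 27.0 FPKM in TH, 38.7 and 37.9 FPKM in TL, 38.1 and 39.0 FPKM in YH, and 30.6 and 25.9 FPKM in YL. It was below TL, YH and YL1 in both TH libraries, and YL2 lay between the TH libraries. Its log2 fold change was -0.63 (SE 0.21, limma adjusted p = 0.228) for TH to YH and -0.62 (SE 0.21) for TH to TL. Against YL it was 0.43 (SE 0.21, limma adjusted p = 0.621) for TL to YL and 0.44 (SE 0.21, limma adjusted p = 0.784) for YH to YL, and 0.32 and 0.33 with YL1 alone. IDH3A, the catalytic subunit of the same enzyme, was at 141 and 130 FPKM in TH against 124 to 152 FPKM in TL, YH and YL1, with no separation of the groups.

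The succinyl-CoA ligase offers a comparison inside a single enzyme, since SUCLG1 pairs with either the ADP-forming subunit SUCLA2 or the GDP-forming subunit SUCLG2. These genes were chosen for display after their values were seen. SUCLG2 was at 35.4 and 34.5 FPKM in TH, 70.6 and 69.9 FPKM in TL, 63.5 and 63.3 FPKM in YH, and 59.3 and 107 FPKM in YL. All 6 other libraries were above TH. SUCLA2 was at 107 and 88.6 FPKM in TH and at 117 to 136 FPKM in TL, YH and YL1, with 56.8 FPKM in YL2. The ratio of SUCLA2 to SUCLG2 was 3.02 and 2.57 in TH, 1.70 to 2.13 in TL, YH and YL1, and 0.531 in YL2. The ratio was thus highest in TH and lowest in YL2. SUCLG1 showed no such pattern, at 535 and 317 FPKM in TH and 414 to 526 FPKM in TL, YH and YL1. Over the whole role, 12 of 13 TCA cycle genes were lower in TH than in YH with a median log2 fold change of -0.31, and 13 of 13 were lower in TH than in TL with a median of -0.36. These medians were -0.14 and -0.21 without TH2, and -0.46 and -0.52 without TH1. Of the 13 genes, 2 (DLD and SUCLG2) had both TH libraries below the 6 others, and 7 had them below the 5 others without YL2, where 8.06% and 11.9% of all genes did.

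**Figure D2:**
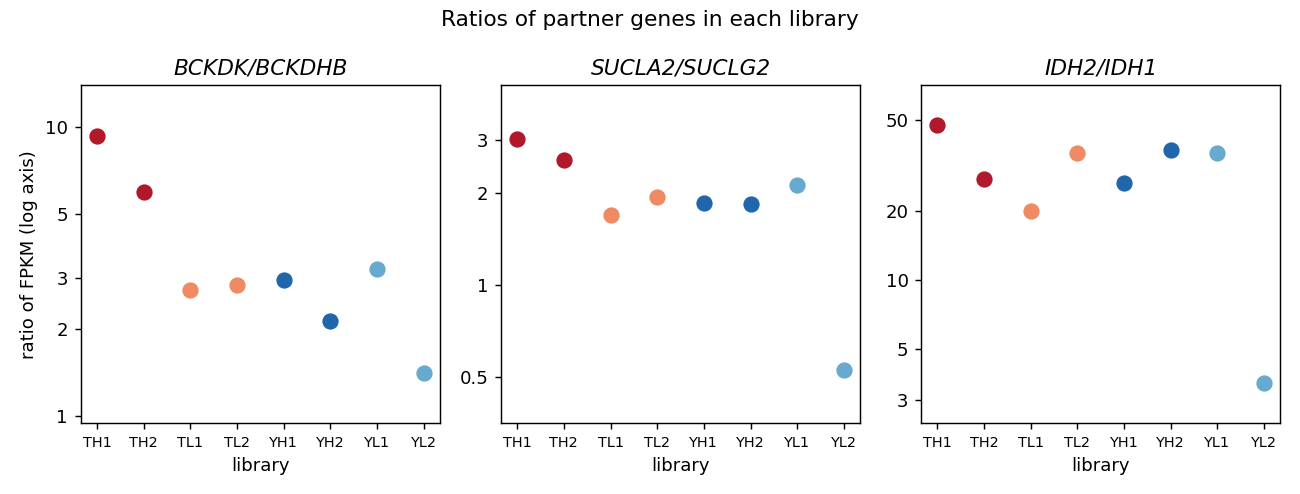
Ratio of FPKM for 3 pairs of genes in each of the 8 libraries, on a log axis, with a panel for each pair and colours for the 4 groups. BCKDK/BCKDHB is 9.28 and 5.93 in TH and 3.21 or less elsewhere, and both SUCLA2/SUCLG2 and IDH2/IDH1 are lowest in YL2.

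Cytosolic aconitase, cytosolic isocitrate dehydrogenase and the malic enzymes work on intermediates of the cycle without being steps of it, and the NADP-linked ones among them supply NADPH. ME2 is the NAD-linked malic enzyme of mitochondria. ME2 (chromosome 1, 110332947 to 110410112) was at 6.74 and 10.04 FPKM in TH, 19.6 and 18.6 FPKM in TL, 16.7 and 12.2 FPKM in YH, and 10.6 and 10.4 FPKM in YL. TL was the highest group and both TH libraries were the lowest, although TH2 was near YL. Its log2 fold change was -1.12 (SE 0.25, limma adjusted p = 0.221) for TH to TL and 0.80 (SE 0.25, limma adjusted p = 0.408) for TL to YL, and the latter was 0.79 with YL1 alone. ACO1, the cytosolic aconitase that doubles as an iron sensor, was at 22.8 and 26.4 FPKM in TH, 18.6 and 20.6 FPKM in TL, 29.4 and 30.0 FPKM in YH, and 30.5 and 39.3 FPKM in YL. By the fitted log means it was the only one of the 34 genes with TH above TL, and its TL libraries were the lowest of the 8. For TL to YL its log2 fold change was -0.79 (SE 0.21, limma adjusted p = 0.336), and -0.61 with YL1 alone. ME3, the NADP-linked malic enzyme of mitochondria, was at 25.4 and 21.6 FPKM in TH, 27.5 and 25.6 FPKM in TL, 41.0 and 31.8 FPKM in YH, and 29.9 and 17.6 FPKM in YL. YH was highest, and the YH to YL log2 fold change of 0.63 (SE 0.29, limma adjusted p = 0.784) was 0.27 with YL1 alone. ME1, the cytosolic malic enzyme, was at 0.94 to 2.01 FPKM in all libraries. IDH1, the cytosolic NADP-linked isocitrate dehydrogenase, was at 11.9 to 20.6 FPKM in 7 libraries and 75.7 FPKM in YL2. The IDH2 to IDH1 ratio was 20.03 to 47.6 in those 7 libraries and 3.54 in YL2.

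The malate-aspartate shuttle was represented by MDH1, GOT1, GOT2 and the aspartate-glutamate carrier SLC25A12. GOT2, the mitochondrial aspartate aminotransferase, lies on chromosome 6 at 18501595 to 18505569. It was at 69.8 and 102 FPKM in TH, 146 and 168 FPKM in TL, 186 and 187 FPKM in YH, and 138 and 94.0 FPKM in YL. TH was below TL, YH and YL1, and YL2 lay between the TH libraries. The log2 fold change was -1.14 (SE 0.29, limma adjusted p = 0.169) for TH to YH, -0.88 (SE 0.29) for TH to TL and 0.71 (SE 0.29, limma adjusted p = 0.784) for YH to YL, the last of which was 0.43 with YL1 alone. SLC25A12 was at 53.3 and 51.5 FPKM in TH, 93.7 and 98.96 FPKM in TL, 92.4 and 84.1 FPKM in YH, and 78.9 and 43.1 FPKM in YL. The pattern was that of GOT2, with YL2 below both TH libraries. For TL to YL its log2 fold change was 0.71 (SE 0.30, limma adjusted p = 0.558), and 0.28 with YL1 alone. For YH to YL it was 0.59 (SE 0.30, limma adjusted p = 0.784), and 0.16 with YL1 alone.

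GOT1 and MDH1 are the cytosolic members of the shuttle. GOT1 was at 233 and 168 FPKM in TH, 280 and 276 FPKM in TL, 352 and 313 FPKM in YH, and 341 and 163 FPKM in YL. TH was again below TL, YH and YL1. MDH1, on an unplaced scaffold, was at 604 and 355 FPKM in TH, 485 and 506 FPKM in TL, 500 and 355 FPKM in YH, and 569 and 283 FPKM in YL. Here TH overlapped every group but YL2. The log2 fold change of MDH1 was 0.14 (SE 0.43) for TH to YH and -0.10 (SE 0.43) for TH to TL. The first took the opposite sign without TH1 and the second without TH2. A further MDH1 locus, on chromosome 3 at 82274611 to 82325849, was found by its Ensembl ID only and was at 154 and 194 FPKM in TH, 261 and 271 FPKM in TL, 288 and 302 FPKM in YH, and 245 and 149 FPKM in YL. This locus had TH below TL, YH and YL1, unlike the named row. The sequences of these loci were not compared, and how the authors' counting shared any common reads is not given in the sources used here, so both MDH1 values are uncertain.

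Ketone body use was covered by OXCT1 and ACAT1. OXCT1 activates acetoacetate with succinyl-CoA, the step that commits ketone bodies to oxidation and that the liver lacks, and ACAT1 splits acetoacetyl-CoA to acetyl-CoA and also serves the isoleucine pathway. OXCT1 (chromosome 16, 27700506 to 27924262) was at 95.0 and 100.4 FPKM in TH, 196 and 168 FPKM in TL, 145 and 119 FPKM in YH, and 113 and 80.2 FPKM in YL. TL was the highest group, TH lay below TL and YH, and YL2 was lowest. Its log2 fold change was -0.89 (SE 0.26, limma adjusted p = 0.301) for TH to TL and 0.92 (SE 0.26, limma adjusted p = 0.343) for TL to YL, the latter 0.68 with YL1 alone. For YH to YL it was 0.46 (SE 0.26, limma adjusted p = 0.784), and 0.22 with YL1 alone. ACAT1 was at 73.0 and 65.0 FPKM in TH, 128 and 109 FPKM in TL, 104 and 108 FPKM in YH, and 106 and 79.9 FPKM in YL. Both TH libraries were the lowest of the 8. BDH1, the dehydrogenase that turns hydroxybutyrate into acetoacetate, was found by its Ensembl ID only and was at 16.9 and 14.6 FPKM in TH, 37.5 and 41.6 FPKM in TL, 44.7 and 36.9 FPKM in YH, and 53.3 and 27.7 FPKM in YL. TH was again lowest, with a log2 fold change of -1.32 (SE 0.32, limma adjusted p = 0.156) for TH to YH and -1.28 (SE 0.32, limma adjusted p = 0.255) for TH to TL.

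The shared steps of branched-chain breakdown held the gene with the smallest p of the set. BCKDHB, the beta subunit of the decarboxylase of the branched-chain dehydrogenase complex, lies on chromosome 1 at 96603029 to 96716539. It was at 10.9 and 15.6 FPKM in TH, 39.7 and 36.1 FPKM in TL, 31.2 and 40.1 FPKM in YH, and 32.9 and 41.95 FPKM in YL, from 172 and 216 reads in TH and 428 to 1008 reads elsewhere. The 6 libraries outside TH all lay between 31.2 and 41.95 FPKM, YL2 included. Its log2 fold change was -1.37 (SE 0.26, limma adjusted p = 0.0983) for TH to YH and -1.46 (SE 0.26, limma adjusted p = 0.173) for TH to TL. With edgeR on recovered reads and YL2 left out, the adjusted p was 0.0471 and 0.0487 in turn, and with all libraries in edgeR it was 0.123 and 0.175. BCKDK, the kinase that switches the complex off by phosphorylation, was at 101.2 and 92.7 FPKM in TH, 108 and 102 FPKM in TL, 91.6 and 85.1 FPKM in YH, and 106 and 59.1 FPKM in YL. It thus did not share the TH pattern, with a log2 fold change of 0.13 (SE 0.30) for TH to YH and -0.12 (SE 0.30) for TH to TL. The ratio of BCKDK to BCKDHB was 9.28 and 5.93 in TH, 2.12 to 3.21 in TL, YH and YL1, and 1.41 in YL2. BCAT2 was at 42.4 and 37.1 FPKM in TH, 60.5 and 55.2 FPKM in TL, 57.2 and 58.4 FPKM in YH, and 54.7 and 31.0 FPKM in YL. TH was below TL, YH and YL1. DBT, the acyltransferase core of the complex, was at 7.39 and 9.76 FPKM in TH and 10.24 to 13.1 FPKM in TL, YH and YL1. BCKDHA, the partner of BCKDHB, was found by its Ensembl ID only, at 1.98 and 1.75 FPKM in TH and 2.63 to 4.02 FPKM elsewhere.

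**Figure D3:**
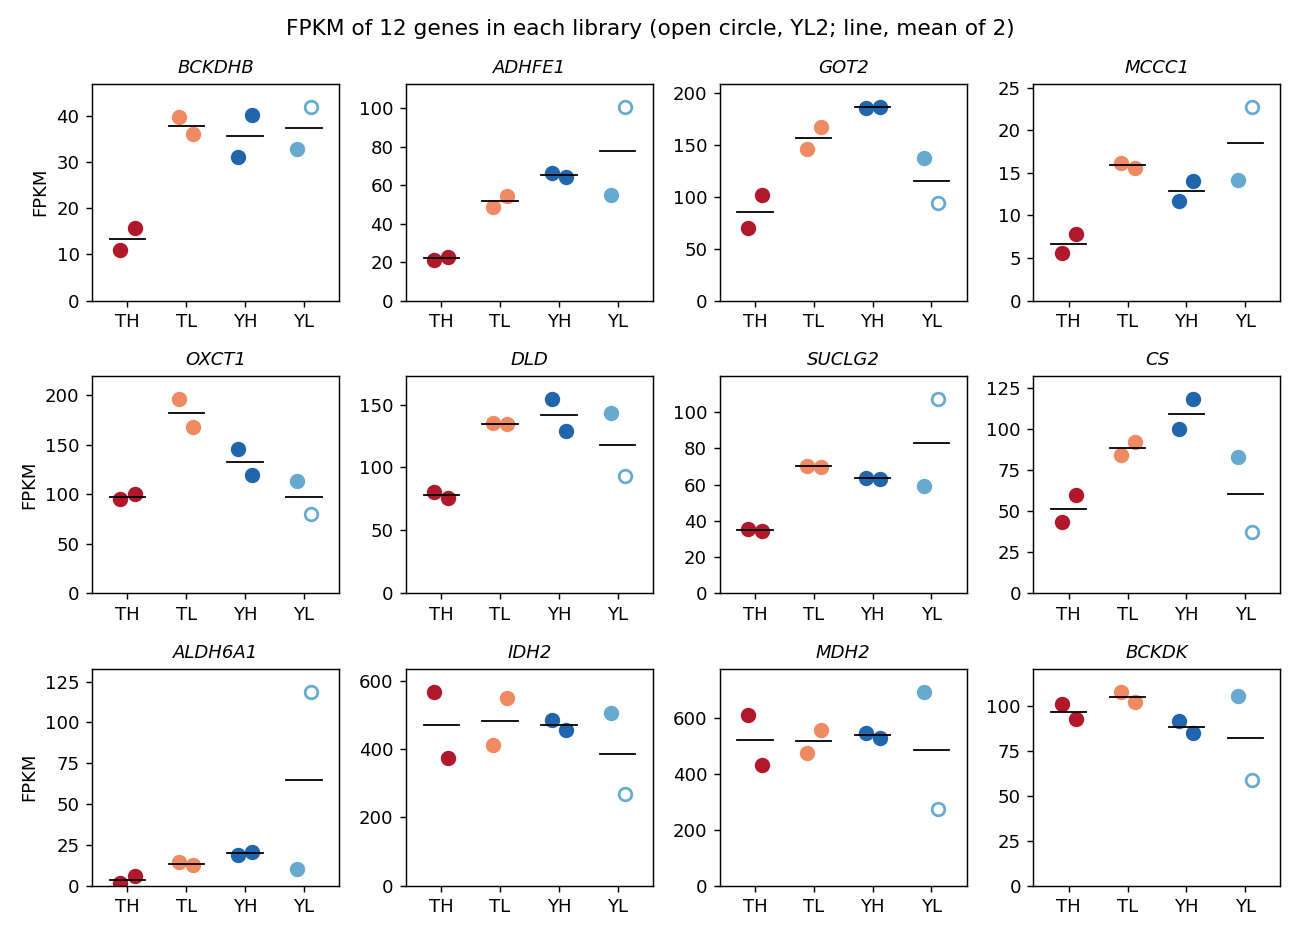
FPKM of 12 genes in the 4 groups, 1 point per library, with the mean of each group as a line and YL2 as an open circle. Every axis starts at 0. BCKDHB, ADHFE1, MCCC1, DLD and SUCLG2 have both TH points below all others, while IDH2, MDH2 and BCKDK do not separate TH.

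In the leucine arm, IVD oxidises isovaleryl-CoA, and MCCC1 and MCCC2 form the biotin-dependent carboxylase of the next step. IVD was at 35.6 and 36.3 FPKM in TH, 69.3 and 62.3 FPKM in TL, 47.5 and 44.8 FPKM in YH, and 62.0 and 50.4 FPKM in YL. Both TH libraries were the lowest, and YH lay between TH and TL. Its log2 fold change was -0.85 (SE 0.21, limma adjusted p = 0.245) for TH to TL and -0.35 (SE 0.21) for TH to YH. MCCC1 (chromosome 13, 130222507 to 130308499) was at 5.59 and 7.80 FPKM in TH, 16.2 and 15.6 FPKM in TL, 11.7 and 14.1 FPKM in YH, and 14.2 and 22.7 FPKM in YL. TH was lowest, with a log2 fold change of -1.15 (SE 0.28, limma adjusted p = 0.247) for TH to TL and -0.86 (SE 0.28, limma adjusted p = 0.229) for TH to YH. MCCC2 was at 2.96 and 7.87 FPKM in TH and 7.47 to 11.8 FPKM in TL, YH and YL1, so that TH2 overlapped YL1, from 90 reads in TH1. The median log2 fold change of the 3 genes was -0.86 for TH to YH and -1.07 for TH to TL. The first of these depended on TH1, since it was -0.35 without TH1.

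The valine arm, the propionate steps and the hydroxyacid transhydrogenase were each represented by 1 tested gene. ALDH6A1, the methylmalonate semialdehyde dehydrogenase of valine breakdown, was at 1.72 and 5.77 FPKM in TH, 14.4 and 12.6 FPKM in TL, 19.02 and 20.7 FPKM in YH, and 10.5 and 119 FPKM in YL, from 58 reads in TH1 to 6037 reads in YL2. TH was lowest and YL2 was 11.3 times YL1. The log2 fold changes of -2.28 for TH to YH and -1.75 for TH to TL carried an SE near 1, as the fit pools the spread of all groups, that between YL1 and YL2 included. They were -1.62 and -1.10 without TH1, and -2.94 and -2.41 without TH2. PCCB, the beta subunit of propionyl-CoA carboxylase, was at 12.2 and 12.8 FPKM in TH, 19.004 and 20.8 FPKM in TL, 22.5 and 23.7 FPKM in YH, and 18.2 and 74.1 FPKM in YL. TH was lowest here as well. ADHFE1, which passes electrons from gamma-hydroxybutyrate, not the ketone body, to oxoglutarate, lies on chromosome 4 at 74419323 to 74452907. It was at 21.4 and 22.6 FPKM in TH, 48.8 and 54.5 FPKM in TL, 66.5 and 64.4 FPKM in YH, and 54.7 and 100.8 FPKM in YL. Both TH libraries were below the others, by 2 times or more against each. Its log2 fold change was -1.53 (SE 0.30, limma adjusted p = 0.106) for TH to YH and -1.20 (SE 0.30, limma adjusted p = 0.255) for TH to TL, and edgeR without YL2 gave an adjusted p of 0.0286 for TH to YH, against 0.132 with all libraries. For TL to YL the log2 fold change of ADHFE1 was -0.52 (SE 0.30, limma adjusted p = 0.683), and -0.08 with YL1 alone.

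Further rows for enzymes of these arms were found by Ensembl ID, and they were kept out of all counts above. All but that of MMUT, another name of MUT, stand for symbols that had no row. PCCA, the partner of PCCB, was at 3.82 and 6.95 FPKM in TH, 14.5 and 14.0 FPKM in TL, 22.2 and 18.1 FPKM in YH, and 17.4 and 20.3 FPKM in YL, from 20 and 33 reads in TH and 81 to 174 reads elsewhere. TH was lowest, with a log2 fold change of -1.77 (SE 0.28, limma adjusted p = 0.0761) for TH to YH and -1.30 (SE 0.28, limma adjusted p = 0.213) for TH to TL. HIBCH, a hydrolase of the valine arm, was at 24.3 and 25.3 FPKM in TH and 38.9 to 50.1 FPKM in the 6 others. MMUT, the mutase that makes succinyl-CoA, was at 7.76 and 8.93 FPKM in TH and 11.96 to 18.2 FPKM in the 6 others. HIBADH, the dehydrogenase after HIBCH, was at 78.2 and 56.4 FPKM in TH and 83.6 to 209 FPKM in the 6 others. Of these 7 rows, the further MDH1 locus, BCKDHA and BDH1 included, 6 had both TH libraries below the 6 others, the exception being the MDH1 locus, where 8.06% of all genes did.

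**Figure D4:**
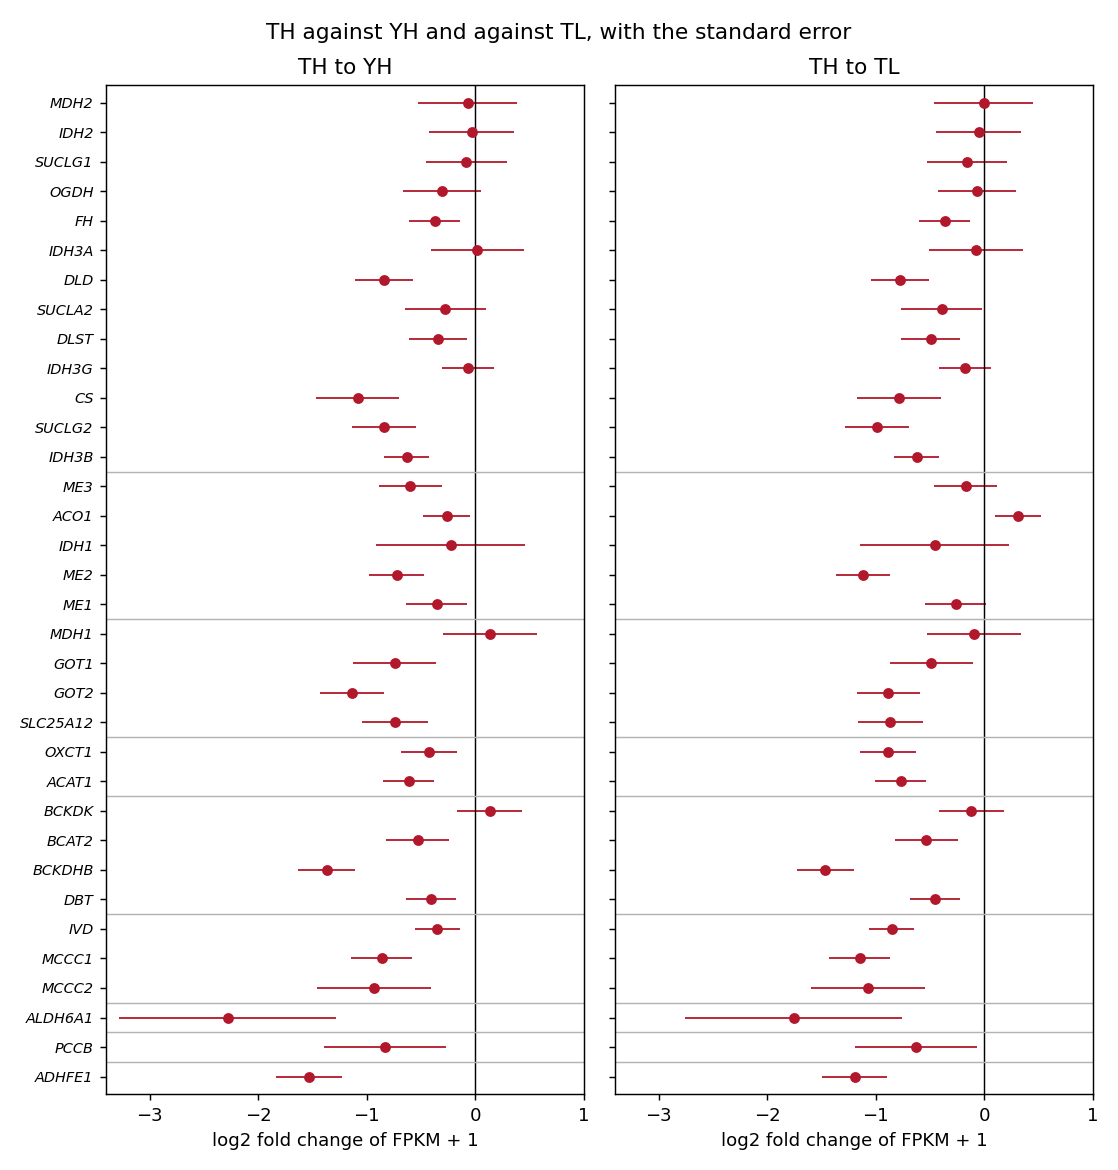
Log2 fold change of FPKM + 1 for TH to YH (left) and TH to TL (right) for each of the 34 genes, with the standard error of the limma fit as bars and grey lines between roles. 31 and 33 points lie left of 0, and both panels use the same TH libraries.

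Counted over the set, TH to YH asks how the breeds differ in the highland and TH to TL how Tibetan pigs differ between altitudes. Both use the same TH libraries, so they are not independent. For TH to YH, limma called 0 of 34 genes, where 0.0336% of all genes were called. Of the 34, 11 had an unadjusted p under 0.05 with TH lower and 0 with TH higher, where the background was 8.47% lower and 7.71% higher. With edgeR 0 were called and 8 had an unadjusted p under 0.05, all with TH lower. Over all genes 811 of 11913 had this with TH lower, and 14.4% did in either direction. The TH and YH libraries did not overlap for 26 of 34 genes with TH lower and for 1 (BCKDK) with TH higher, where 27.3% and 25.2% of all genes did so. For TH to TL, limma called 0 of 34, with a background of 0.0504%. Here 12 had an unadjusted p under 0.05 with TH lower and 0 with TH higher, against 5.53% and 5.81% of all genes. With edgeR 0 were called and 11 had an unadjusted p under 0.05, all with TH lower, against 548 of 11913 genes with TH lower and 10.2% in either direction. The libraries did not overlap for 25 genes with TH lower and 1 (ACO1) with TH higher, against 24.5% and 24.0%. The share of genes low in TH was thus above the background in both comparisons, while no single gene passed the threshold.

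Set against all other libraries at once, both TH libraries were below the other 6 for 10 of 34 genes, where 8.06% of all genes were. These were ALDH6A1, BCKDHB, ME2, IVD, ADHFE1, SUCLG2, PCCB, DLD, MCCC1 and ACAT1. Both TH libraries were above the other 6 for 0 of 34, against 10.1%. When YL2 was left out, TH was below the 5 others for 22 of 34 genes, against 11.9%. The 12 further genes include CS, GOT1, GOT2, SLC25A12, OXCT1 and BCAT2, for which YL2 was below at least 1 of the TH libraries.

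The directions near 0 rested on single libraries. Without TH2, 27 of 34 genes were lower in TH than in YH and 28 lower than in TL, and MDH2, IDH2 and SUCLG1 took the opposite sign in both. So did IDH3G for TH to YH, and MDH1 and OGDH for TH to TL. Without TH1, 33 of 34 were lower in each, and IDH3A and MDH1 took the opposite sign for TH to YH. With median-ratio scaling, 32 of 34 were lower than in YH and 33 lower than in TL, and IDH3A took the opposite sign for TH to YH. With edgeR, BCKDK and SUCLG1 took the opposite sign for TH to YH, and MDH1 for TH to TL. In the main fit, the log2 fold changes that took the opposite sign here lay between -0.16 and 0.14.

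Marker genes of other cells moved with TH as well. The atrial list (7 of 9 genes found) summed to 6646 and 5410 FPKM in TH, 1575 to 2710 FPKM in TL, 871 to 1183 FPKM in YH and 411 to 2711 FPKM in YL. It was carried by NPPA, the atrial natriuretic peptide that ventricles also make under load, at 2263 and 2146 FPKM in TH and 23.1 to 108 FPKM elsewhere, and by MYL7. MYH6, another atrial gene, was instead at 20.6 and 18.4 FPKM in TH and 75.1 to 246 FPKM in TL, YH and YL1, and 3 of the 7 atrial genes had both TH libraries above the others. The smooth muscle list (5 of 5 found) summed to 9452 and 6064 FPKM in TH, 1495 to 1913 FPKM in TL, 1826 to 2809 FPKM in YH and 1001 to 3600 FPKM in YL, of which most was desmin, DES, which heart muscle also makes. In 3 of its 5 rows both TH libraries were above the 6 others, namely DES, TAGLN at 146 and 131 FPKM in TH and 40.4 to 98.4 FPKM elsewhere, and CNN1 at 132 and 89.5 FPKM in TH and 10.9 to 61.7 FPKM elsewhere. MYH11, the myosin of smooth muscle, was at 0.388 and 2.69 FPKM in TH and 1.88 to 4.87 FPKM elsewhere. The list of skeletal muscle genes (7 of 11 found) summed to 31309 and 22308 FPKM in TH and 7060 to 18255 FPKM elsewhere. Most of it was ACTA1, while CKM, the muscle creatine kinase that heart also makes, ran the other way at 1300 and 917 FPKM in TH and 2087 to 2745 FPKM in TL, YH and YL1, with YL2 at 1226 FPKM. TNNC2, the troponin C of fast skeletal muscle, was at 3.24 and 3.41 FPKM in TH and 0.147 to 0.785 FPKM elsewhere, and MYH1 and MYH2 were at 0 in every library to the first decimal. The blood list (6 of 7 found) summed to 3115 and 1635 FPKM in TH and 533 to 1409 FPKM elsewhere. The endothelial list (5 of 7 found) summed to 143 and 164 FPKM in TH and 74.3 to 145 FPKM elsewhere, without a common direction. PECAM1 and CLDN5 were highest in TH, while VWF, TEK and KDR were lowest in TH1, at 1.07, 3.70 and 8.74 FPKM, and within the range of the other groups in TH2. The fibroblast list (9 rows) summed to 198 FPKM in TH1, 695 FPKM in TH2 and 228 to 811 FPKM elsewhere, so that the TH pools differed from each other. By its sum the adipocyte list (6 of 9 found) ran lower, at 12.001 and 8.92 FPKM in TH and 12.07 to 24.2 FPKM elsewhere, with TH1 close to the lowest of these. In 2 of its 6 rows both TH libraries were below the 6 others. One of them was PLIN4, a lipid droplet protein, at 2.65 and 3.58 FPKM in TH and 5.27 to 9.33 FPKM elsewhere. LIPE, the other abundant gene of the list, was above TL instead. It was at 8.73 and 4.72 FPKM in TH, 3.36 and 2.12 FPKM in TL, and 6.29 to 14.4 FPKM in YH and YL. The ventricular list (6 of 8 found) summed to 34808 FPKM in TH1, 19004 FPKM in TH2 and 12567 to 30989 FPKM elsewhere. The part of these markers in the lower values of the TCA, ketone and branched-chain genes was not tested.

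The other genes of the same pathways were taken as lists. For TH to YH, 16 of 17 other genes of the TCA cycle and pyruvate entry were lower in TH, with a median log2 fold change of -0.36, and 7 had an unadjusted p under 0.05 with TH lower and 0 with TH higher, where 8.47% and 7.71% of all genes did. PDHA1, a subunit of pyruvate dehydrogenase, was at 240 and 214 FPKM in TH and 276 to 426 FPKM in the 6 others. SDHB, of succinate dehydrogenase, was at 334 and 197 FPKM in TH and 240 to 339 FPKM in the 6 others. PDHA1 thus had lower values in both TH libraries, and SDHB overlapped. Among the other ketone body genes 5 of 6 were lower, with a median of -0.62. Among the other genes of branched-chain breakdown 14 of 20 were lower, with a median of -0.54, and of those for fatty acid oxidation 19 of 23, with a median of -0.66. In these 3 lists 1, 6 and 10 genes had an unadjusted p under 0.05 with TH lower, and 1, 0 and 0 with TH higher. The last 2 lists share 6 genes (HADHA, HADHB, HADH, ACADM, ECHS1 and ACADS), all lower in TH, and without them 8 of 14 genes of branched-chain breakdown were lower, with a median of -0.16 and 2 at an unadjusted p under 0.05. Of the other genes of the shuttle and its carriers 3 of 5 were lower, with a median of -0.09. The size of these medians depended on single libraries. For the TCA and pyruvate list it was -0.58 without TH1, -0.22 without YH1 and -0.59 without YH2, and for the ketone list -0.40 without TH1 and -0.40 without YH1. The shuttle list was at -0.05 without TH1, 0.03 without TH2 and -0.19 without YH2.

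For TH to TL the same lists had 14 of 17, 5 of 6, 12 of 20 and 15 of 23 genes lower, with medians of -0.60, -0.44, -0.24 and -0.22. Without the shared genes 7 of 14 branched-chain genes were lower, with a median of -0.07. Without TH2 the last 2 of the 4 medians were -0.10 and -0.02, and that of fatty acid oxidation was -0.33 without TH1 and -0.10 without TL2. The shuttle list had 2 of 5 lower, with a median of 0.04, which was 0.24 without TH2, 0.08 without TL1 and -0.01 without either TH1 or TL2. Oxidative phosphorylation is the process that uses the electrons that the cycle yields. For TH to YH, its nuclear genes were lower in TH for 18 of 50 (median 0.14). For TH to TL they were lower for 28 of 50 (median -0.02). The 13 genes of the mitochondrial genome were all higher in TH by the fitted means, with medians of 0.46 and 0.49, and 0 had an unadjusted p under 0.05 in limma. Glycolysis genes were lower for 8 of 17 (median 0.02) and 12 of 17 (median -0.27). The TH pools differed here: without TH1 the medians were -0.25 and -0.39 for nuclear oxidative phosphorylation genes and 0.01 and 0.08 for the mitochondrial genome. Without TH2 they were 0.48 and 0.35, and 0.99 and 0.98. For glycolysis they were -0.21 and -0.39 without TH1, and -0.12 and -0.17 without TH2. Without YH1 and YH2 in turn, the TH to YH median was 0.75 and 0.24 for the mitochondrial genome, 0.15 and 0.08 for oxidative phosphorylation, and -0.05 and 0.03 for glycolysis. Without TL2, the TH to TL median was 0.02 for oxidative phosphorylation and -0.17 for glycolysis, and without TL1 the former was -0.07. No gene of these lists was called in either comparison.

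TL to YL asks how the breeds differ in the lowland and YH to YL how Yorkshire pigs differ between altitudes, and YL2 shaped both. For TL to YL, 26 of 34 genes were higher in TL with a median log2 fold change of 0.24, but with YL1 alone 22 were higher and the median was 0.09. For YH to YL, 24 of 34 were higher in YH with a median of 0.24, but with YL1 alone 19 were higher and the median was 0.08. The sign changed on leaving out YL2 for 16 genes in the first comparison and for 19 in the second, among them MDH2, IDH2, SUCLG1 and SUCLG2. Limma called 0 of 34 in both, against 0.00839% and 0.0% of all genes. An unadjusted p under 0.05 was reached in TL to YL by 2 genes with TL higher (OXCT1 and ME2, background 5.9%) and 1 with TL lower (ACO1, background 3.04%), and in YH to YL by 2 with YH higher (CS and GOT2, background 4.39%) and 0 with YH lower (background 1.58%). With edgeR 0 were called, and 5 and 1 genes had an unadjusted p under 0.05, against 11.0% and 8.74% of all genes.

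The overlap of the libraries gave a like picture. Both libraries of each group were apart for 12 genes with TL higher and 2 with TL lower (background 23.8% and 17.8%). For YH to YL these counts were 9 and 3 (background 21.9% and 14.4%). Against YL1 alone, both TL libraries were above it for 20 genes and below it for 9 (background 45.7% and 35.5%). Both YH libraries were above YL1 for 15 and below it for 13 (background 43.6% and 31.4%). The 2 comparisons share the YL libraries. For ACO1 and OXCT1 the order of TL and YL was the same with YL1 alone, at 18.6 and 20.6 against 30.5 FPKM for ACO1 and 196 and 168 against 113 FPKM for OXCT1.

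**Figure D5:**
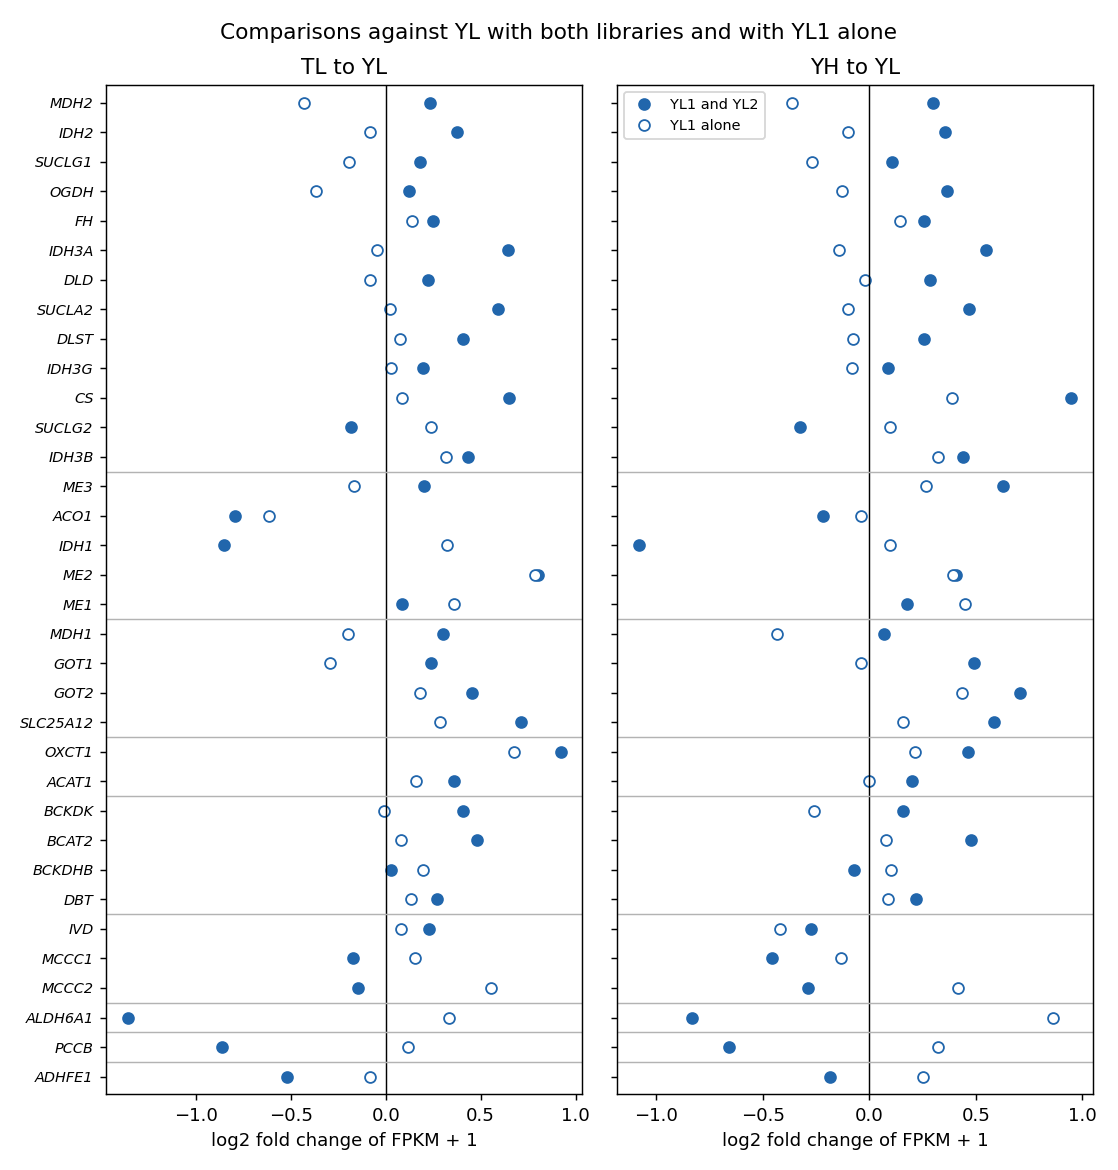
Log2 fold change of FPKM + 1 for TL to YL (left) and YH to YL (right) for each of the 34 genes, with both YL libraries (filled) and with YL1 alone (open). For 16 genes on the left and 19 on the right the open point is on the other side of 0.

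YL2 moved the genes in both directions. It was over 2 times YL1 for 4 of 34 genes, namely MCCC2 at 2.86 times, PCCB at 4.06 times, IDH1 at 5.42 times and ALDH6A1 at 11.3 times, where 16.6% of all genes were. It was under 0.5 times YL1 for 6 genes (IDH3A, MDH2, SUCLA2, CS, GOT1 and MDH1), where 11.0% were. YL2 was the lowest of the 8 libraries for 16 genes and the highest for 9, against 22.5% and 24.7% of all genes. The 9 highest in YL2 were those 4 and SUCLG2, ADHFE1, ACO1, MCCC1 and BCKDHB, and the 16 lowest include OXCT1, BCKDK, BCAT2 and ME3 beside genes of the cycle and the shuttle. The kidney markers given above moved with these values, and their part was not tested.

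The interaction asks whether the difference between altitudes is the same in the breeds, taking YH to YL away from TH to TL. It was negative for 31 of 34 genes with a median of -0.72, against -0.01 over all genes, and for 26 of 34 with a median of -0.58 with YL1 alone. Limma called 0 of 34 genes, against 0.0336% of all genes, and 10 had an unadjusted p under 0.05 with a negative value and 0 with a positive value, against 7.16% and 3.78%. With edgeR 0 were called and 6 had an unadjusted p under 0.05, all with a negative value. Over all genes 677 of 11913 had this with a negative value, and 10.9% did in either direction. The smallest p was that of ME2, with an interaction of -1.52 on the log2 scale (SE 0.36, limma adjusted p = 0.296), and -1.51 with YL1 alone. GOT2 followed with -1.59 (SE 0.41, limma adjusted p = 0.329), and -1.32 with YL1 alone. The value for BCKDHB was -1.40 (SE 0.37, limma adjusted p = 0.333), and -1.57 with YL1 alone. OXCT1, IDH3B and SLC25A12 were at -1.35, -1.06 and -1.45 (limma adjusted p of 0.333, 0.333 and 0.357), and at -1.10, -0.95 and -1.02 with YL1 alone. For these 6 genes the altitude difference was negative in Tibetan pigs and positive or near 0 in Yorkshire pigs, and none of the differences passed the threshold.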

How the data were processed

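RNA of pig heart was sequenced in 8 libraries, 2 for each of 4 groups. As the methods and labels state, the authors aligned reads to Sscrofa10.2 with TopHat2 2.0.9, computed FPKM with Cufflinks and called genes with DESeq 1.10.1; the labels also list Bowtie 0.12.5. The deposited table gives per library FPKM and a signal, which is the reads on each gene that the authors scaled by a factor per library. Dividing this signal by its smallest step made 99.7% to 99.8% of values below 50 reads whole within 0.05, and these recovered reads served for depth and for edgeR only. The means per group and their ratios, 8 columns by the authors, were left out. The main test was limma 3.58.1 in R 4.3.3 on log2(FPKM + 1) of all 8 libraries with variances that follow the mean, over 11913 genes (1 FPKM or more in 2 libraries or more), with Benjamini-Hochberg adjustment. A fold change is on this scale and understates that of low genes. A call needed a log2 fold change beyond 1 in size at an adjusted p under 0.01. edgeR 4.0.16 (quasi-likelihood, TMM) was an alternative.

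The genes and lists were chosen with earlier results of these data known. Fit statistics are given for called genes and the 6 of smallest p in each comparison, and library values for these and for the 2 most abundant genes of each role; other values named were chosen after they were seen. Rows without a name were looked up by Ensembl ID in a table of gene names, which gave 7 rows of the listed genes. BCKDHA, BDH1, HIBADH, HIBCH and PCCA had no row by name, while MDH1 and MUT (as MMUT) have a named row as well. Nothing says that libraries of different groups pair. The p-values measure the spread between pools of 4 pigs. This spread is taken over all groups, so that the difference between YL1 and YL2 enters every comparison. An exact permutation test of 2 against 2 libraries cannot go below a two-sided p of 0.333, so none was used. Alternatives were other pseudocounts, filters, scalings and thresholds, a replicate term, edgeR, and leaving out each library. Single values of some genes in the pathway lists are not reported here.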

Additional observations from a re-analysis of the deposited data

How the results depend on the processing

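The 30 fold changes of the 6 genes of smallest p in each comparison kept their direction in all 564 alternatives. Of these, 549 stayed on the same side of the threshold and 15 passed it, as far as the looser thresholds named here let them. Many alternatives leave a fold change as it was by design, so 564 is more than the number of separate checks. For BCKDHB in TH to YH it stayed at -1.37 with other filters, looser limma thresholds and a replicate block. It also stayed there with only the 4 libraries compared and on leaving out a TL or YL library. In the other alternatives it lay between -1.61 and -1.13. The genes were picked by p in these data and none was called, so no call was there to lose. The counts over all genes at the settings of the counts below are in the next paragraph, as their background. With an unadjusted p under 0.01 and the fold threshold, 3, 4 and 5 of the 34 genes passed in TH to YH, TH to TL and the interaction. With edgeR without YL2 at an adjusted p under 0.05 and any fold, 2 (ADHFE1 and BCKDHB) passed in TH to YH and 1 (BCKDHB) in TH to TL. Leaving out each library gave 0 to 1 calls among the 34 genes in TL to YL and YH to YL, and 0 in the others. That 1 call was PCCB without YL1 (adjusted p = 0.00513 and 0.00823), where YL rests on YL2.

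Over all genes limma called 4 in TH to YH, 6 in TH to TL, 1 in TL to YL, 0 in YH to YL and 4 in the interaction. In this order an unadjusted p under 0.01 with the fold threshold gave 484, 306, 242, 100 and 339, and edgeR without YL2 at an adjusted p under 0.05 gave 225, 110, 3, 1 and 1. At that threshold limma with all libraries gave 31 in TH to YH and 12 in TH to TL, and edgeR 0 in TH to YH, 1 in TH to TL, 0 in TL to YL and 0 in the interaction. edgeR at the main threshold gave 0 in these 4. The fit of only the 4 libraries compared gave 2 in TL to YL and 11 in TH to TL, and a pseudocount of 0.1 gave 1 in YH to YL. Leaving out each library gave 3 to 6, 4 to 13, 1 to 305, 0 to 305 and 4 to 152, with 305, 305 and 152 in the last 3 without YL1. The 13 in TH to TL came without YL1 and without YL2.

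The median of the genes in TH to YH was -0.56 with a pseudocount of 0.1, -0.42 with no filter (36 genes, with BCAT1 and MUT), -0.53 at a mean of at least 10 FPKM (without ME1) and -0.61 with median-ratio scaling, and -0.62 with that scaling in TH to TL. Leaving out each library gave -0.54 to -0.48 in TH to YH, -0.59 to -0.51 in TH to TL, 0.086 to 0.56 in TL to YL and 0.083 to 0.52 in YH to YL, where both extremes came from leaving out YL2 and YL1. A replicate block left 0 of the 34 genes called and gave 3, 4, 1, 0 and 4 calls over all genes in the order above. Same-numbered libraries correlated at -0.08 to 0.12, and the samples share only a number. The cause of these shifts was not tested. With 2 pools per group the precision is low, and ME1, MCCC2, ALDH6A1 and PCCA rest on under 100 reads in some libraries.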
